A study of Mus musculus with 6 samples.

Results

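Marker genes of the liver's other cells were read out in cultures of primary mouse hepatocytes, the parenchymal cells of the liver. The set is a list of 39 genes chosen by name: 13 of endothelial cells, 14 of Kupffer cells, 5 of stellate cells, 2 of bile duct cells and 5 of lymphocytes or all leukocytes. A symbol match gave 38 of them a probe, with 50 of the array's 25697 probes in all. Epcam, a surface protein of bile duct cells, was not analysed here. Of the 38 genes, 14 were detected. A gene counted as detected if the pair of arrays of any 1 group both gave it a detection p-value below 0.05. None of the 14 differed between the vehicle and either agonist, or between the agonists, at the threshold used.

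Sinusoidal endothelial cells line the liver's capillaries and take up waste through scavenger receptors. Kupffer cells are the resident macrophages of the sinusoids. Stellate cells store vitamin A as retinyl esters and become matrix-producing cells in fibrosis, and cholangiocytes line the bile ducts. Preparations of hepatocytes can carry such cells along, and some of these genes are also made by hepatocytes or by several cell types. Which cells gave the signals below was not tested. In RNA from a whole culture, fewer cells of a type and less RNA per cell cannot be told apart.

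The cells came from male mice that the labels call wildtype on a c57Bl6/J background, 10 weeks old. Cultures received DMSO, the solvent control, or 1 of the PPAR-delta agonists KD3010 and GW1516. PPAR-delta is a lipid-sensing nuclear receptor that controls fatty acid use. Each of the 3 groups had 2 bead arrays, A and B, which the labels call technical replicates, so the spread behind every p-value is technical and holds no difference among mice or platings. The labels give no dose, no treatment time and no number of mice.

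Between 10239 and 10805 probes had a detection p-value below 0.05 on an array, and the lowest signal of a detected probe, called the detection limit below, lay between 281 and 302 intensity units. Arrays of 1 group correlated at 0.989 to 0.991 over the 8058 tested features. Of 16 hepatocyte markers with a probe, 12 were detected and 0 were called in any comparison. The other 4 were Alb (albumin), Fgb, Tat and Pck1. The Alb probe read 234 to 269.6 units, with detection p-values from 0.0815 to 0.332, although albumin is a chief product of hepatocytes. An undetected probe therefore gives no more than a bound on that probe's signal.

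Endothelial genes made up most of what was detected. Of 13 endothelial markers 10 were detected (76.9%), against 44.9% of all 16590 named genes and 41% of all probes on the array. Of 14 Kupffer cell markers 1 was detected (7.14%), of 5 stellate cell markers 2, of 5 lymphocyte and leukocyte markers 0, and the only bile duct marker with a probe, Sox9, was detected. By group, 11 members were detected on both DMSO arrays, 12 on both KD3010 arrays and 14 on both GW1516 arrays. The members detected on all 6 arrays numbered 11, namely Pecam1, Cdh5, Stab1, Lyve1, Clec4g, Fcgr2b, Eng, Egfl7, Ptprb, Reln and Sox9. Tek and Hgf entered through GW1516 alone and Ctss through the agonist groups, so the choice itself favoured a higher agonist value for those 3.

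**Figure D1:**
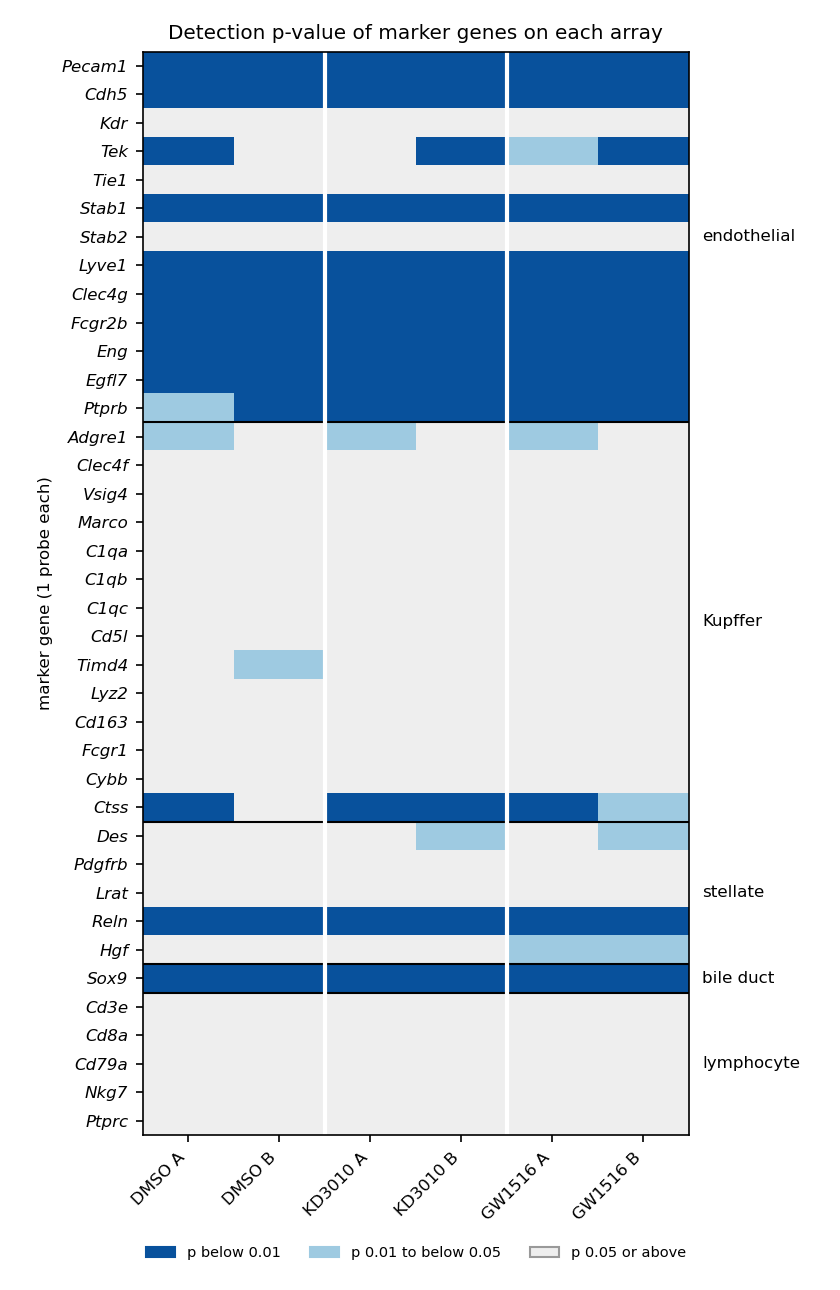
Detection p-value class of the 38 markers with a probe (rows, grouped by cell type) on each of the 6 arrays (columns). Where a gene has several probes, the probe detected on the most arrays is drawn. The 11 genes detected on all 6 arrays are 9 endothelial markers, Reln and Sox9, while the Kupffer and lymphocyte rows are almost all at p of 0.05 or above.

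The 24 members that were not detected had 31 probes. Over their 186 array values, 7 had a detection p-value below 0.05 (3.76%), and 21 of the 24 genes had none. The signals ranged from 179.7 to 338 units. The 3 others were Adgre1, Timd4 and Des.

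**Figure D2:**
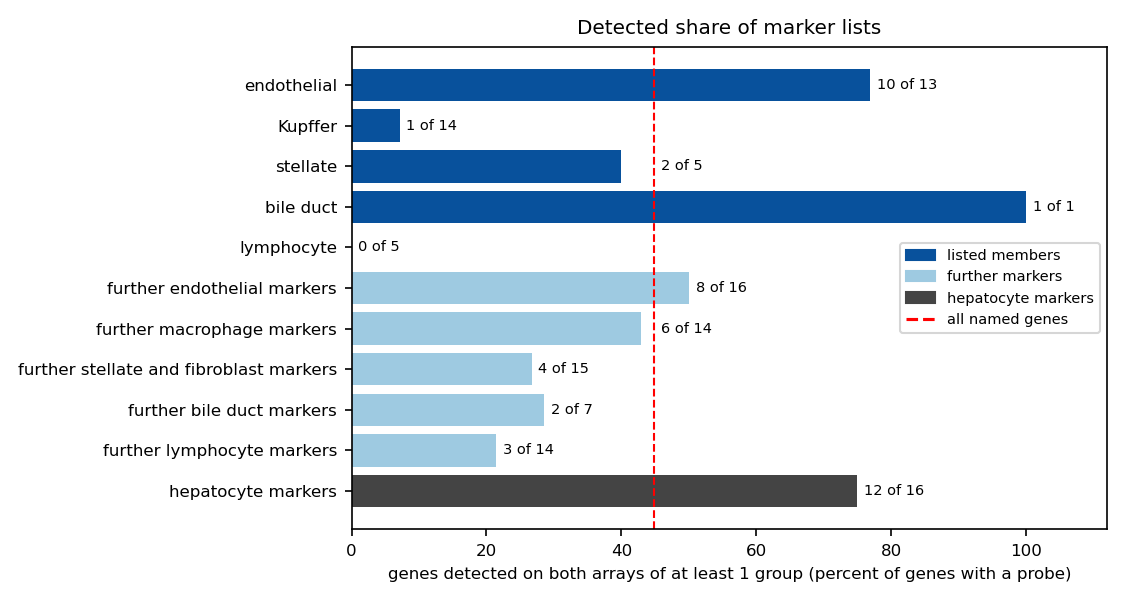
Percent of genes detected on both arrays of at least 1 group, among genes with a probe, for each list of members, for further marker lists and for hepatocyte markers. The dashed line is the 44.9% of all named genes, and the 10 of 13 endothelial members lie above it while 1 of 14 Kupffer members lies below it.

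The junction and adhesion genes of endothelial cells were detected on all 6 arrays, Pecam1 at 1.24 to 1.78 times the detection limit, Cdh5 at 1.17 to 1.4 times and Ptprb at 1.1 to 1.34 times. Pecam1, an adhesion protein of endothelial junctions, had unnormalized signals of 538 and 480 on the DMSO arrays, 437 and 366 on the KD3010 arrays and 436 on each GW1516 array. Its normalized log2 signals were 8.11 and 7.96 with DMSO, 7.94 and 7.18 with KD3010, and 7.97 and 7.72 with GW1516. Both KD3010 arrays lay below both DMSO arrays, but they were 0.76 apart on the log2 scale, more than the group difference of -0.48 ± 0.24 (SE; limma, adjusted p = 0.472). That difference was -0.10 without KD3010 array B and -0.86 without KD3010 array A. Cdh5, the cadherin of endothelial junctions, read 7.26 and 7.22 with DMSO, 7.36 and 6.94 with KD3010, and 7.24 and 7.43 with GW1516, so that all groups overlapped. Before normalization the KD3010 arrays lay below the DMSO arrays for Cdh5, at 365 and 345 units against 395 and 374. Ptprb, a phosphatase that restrains Tie2 signalling, read 6.61 and 7.17 with DMSO, 6.94 and 6.88 with KD3010, and 7.05 and 7.29 with GW1516. The agonist arrays overlapped with the DMSO arrays.

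Scavenger and lectin receptors of the sinusoidal endothelium were all detected on every array, apart from Stab2. Stab1, a scavenger receptor also made by some macrophages, read 7.87 and 7.77 with DMSO, 7.77 and 7.77 with KD3010, and 7.91 and 7.90 with GW1516. Clec4g, the sinusoidal lectin LSECtin, read 8.76 and 8.72 with DMSO, 8.63 and 8.57 with KD3010, and 8.90 and 8.87 with GW1516. After normalization the 3 groups were apart for Clec4g, in the order KD3010, DMSO, GW1516. The log2 difference between the agonists was -0.28 ± 0.15 (SE) (limma, adjusted p = 0.449). Before normalization DMSO and GW1516 overlapped for Clec4g, at 710 and 659 units against 635 and 708. Fcgr2b, an inhibitory Fc receptor that clears immune complexes in the sinusoids, read 8.86 and 8.69 with DMSO, 8.92 and 8.97 with KD3010, and 8.78 and 9.02 with GW1516. Stab2, the hyaluronan scavenger receptor, was not detected on any array, with its lowest detection p-value at 0.0915.

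Lyve1, a hyaluronan receptor of sinusoidal and lymphatic endothelium, had the lowest adjusted p of all members against DMSO. Its unnormalized signals were 646 and 562 with DMSO, 428 and 466 with KD3010, and 403 and 502 with GW1516. On the normalized log2 scale it read 8.55 and 8.35 with DMSO, 7.86 and 7.95 with KD3010, and 7.73 and 8.11 with GW1516. All 4 agonist arrays lay below both DMSO arrays. The log2 difference was -0.55 ± 0.18 (SE, 95% interval -0.95 to -0.14) for KD3010 and -0.53 ± 0.18 (-0.94 to -0.12) for GW1516, and neither passed in limma's test over all features (adjusted p = 0.292 and 0.418). Without background correction the differences were -0.31 and -0.30, and on the authors' values -0.31 for both agonists. Without GW1516 array A the GW1516 difference was -0.35. These comparisons share the DMSO arrays. Between the agonists the difference was -0.01 (95% interval -0.42 to 0.40).

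Receptors and secreted factors of vessel growth gave a mixed picture of detection. Kdr, the main VEGF receptor, and Tie1 were not detected on any array, with lowest detection p-values of 0.199 and 0.129. Eng, a TGF-beta co-receptor, read 7.52 and 7.56 with DMSO, 7.77 and 7.89 with KD3010, and 7.86 and 7.90 with GW1516. Its unnormalized signals overlapped, at 428 and 417 with DMSO, 415 and 457 with KD3010, and 421 and 463 with GW1516. After normalization all agonist arrays lay above both DMSO arrays. The log2 differences were 0.29 ± 0.16 for KD3010 and 0.34 ± 0.16 (SE) for GW1516, and neither passed (limma, adjusted p = 0.499 and 0.531). Without background correction they were 0.14 and 0.17. Egfl7, a protein secreted by endothelial cells, read 10.17 and 10.35 with DMSO, 10.28 and 10.30 with KD3010, and 10.70 and 10.47 with GW1516. On the brightest Egfl7 probe the GW1516 arrays lay above all others. The log2 difference from DMSO was 0.33 ± 0.17 (SE, limma's adjusted p = 0.571), or 0.21 without GW1516 array A.

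Tek, the angiopoietin receptor Tie2, had the widest standard error of the detected members. Its unnormalized signals were 359 and 269.6 with DMSO, 271 and 359 with KD3010, and 285 and 335 with GW1516. The normalized log2 values were 6.91 and 5.84, 6.0 and 7.11, and 6.30 and 6.86 in the same order, and all groups overlapped. The DMSO arrays lay 1.07 apart and the KD3010 arrays 1.11 apart, several times the differences between group means. The log2 differences from DMSO were 0.18 ± 0.41 for KD3010 and 0.20 ± 0.41 (SE) for GW1516.

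**Figure D3:**
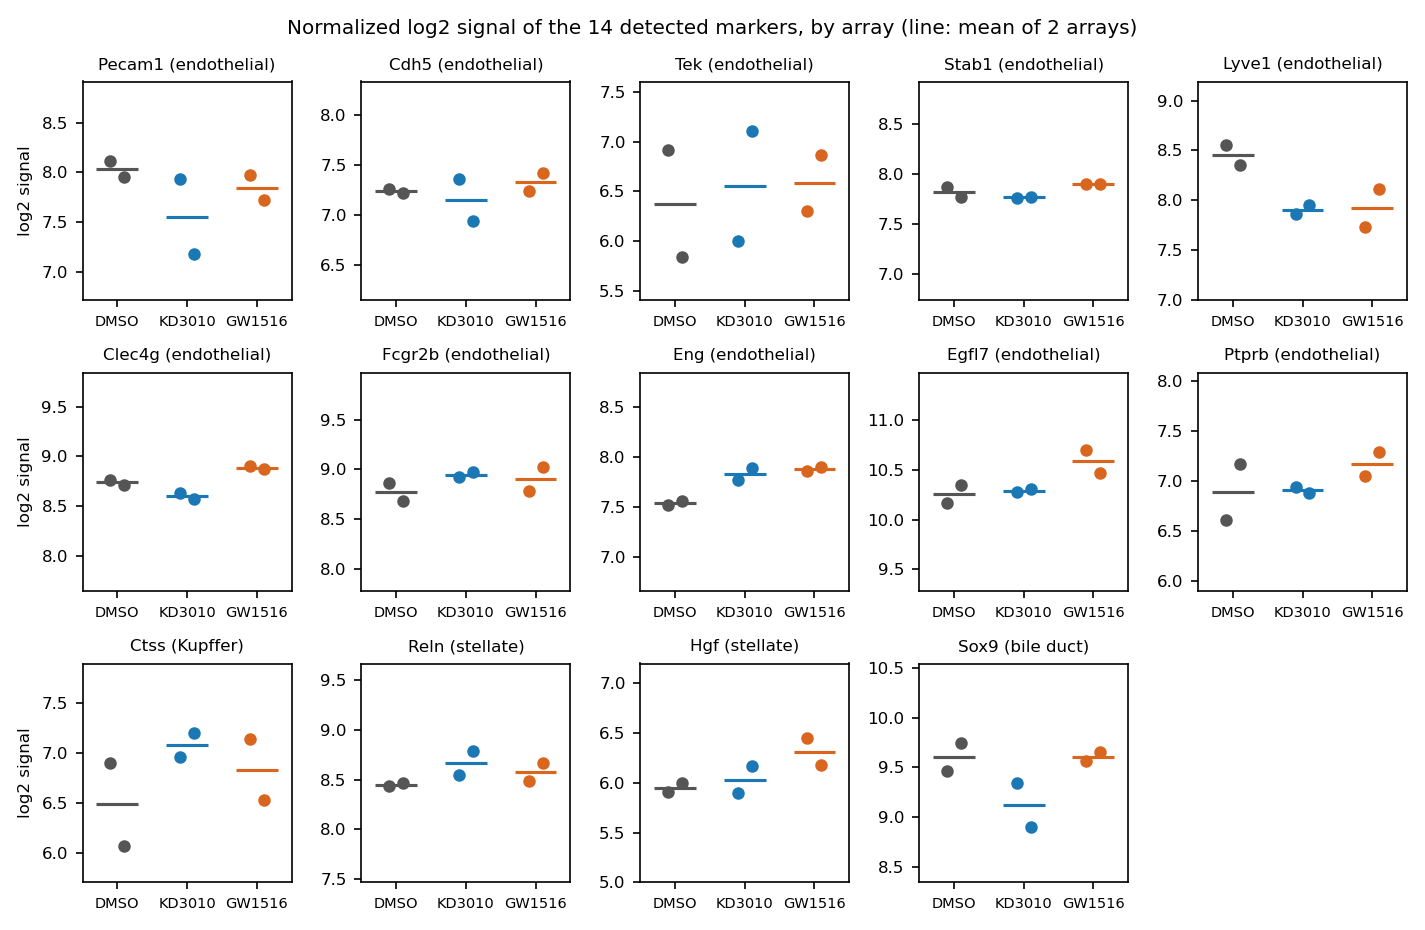
Normalized log2 signal of each detected marker on the 2 arrays of each group (points; horizontal lines are group means). Each panel spans the same log2 range around the gene's own mean. Lyve1 reads 8.55 and 8.35 with DMSO against 7.73 to 8.11 on the agonist arrays, and Tek spreads by 1.07 within DMSO.

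The Kupffer cell members lay near or below the detection limit. Ctss, a lysosomal protease of macrophages that other cells make too, was the only detected Kupffer member. It read 358 and 284 units with DMSO, 329.8 and 369 with KD3010, and 339 and 309 with GW1516, at 0.97 to 1.25 times the detection limit, and DMSO array B lay below it (detection p-value 0.0652). On the log2 scale the values were 6.90 and 6.06 with DMSO, 6.96 and 7.21 with KD3010, and 7.14 and 6.53 with GW1516. The KD3010 arrays lay above the DMSO arrays, with a log2 difference of 0.60 ± 0.29 (SE, 95% interval -0.05 to 1.25; limma, adjusted p = 0.445), which was 0.18 without DMSO array B and 1.00 without DMSO array A. Without background correction it was 0.20. For GW1516 the groups overlapped, and the difference was 0.35 ± 0.29.

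The other Kupffer cell members were undetected, apart from a few readings of Adgre1 and Timd4. Clec4f, the Kupffer cell lectin, the complement receptor gene Vsig4, the scavenger receptors Marco and Cd163, the complement subunits C1qa, C1qb and C1qc, the secreted protein Cd5l, the lysozyme gene Lyz2, the Fc receptor Fcgr1 and the oxidase subunit Cybb had 0 array values below 0.05. The highest of their signals was 282 units, for C1qb, and the lowest detection p-value among them was 0.0677. Adgre1, a surface receptor that marks mouse macrophages, had 3 probes and 4 of 18 values below 0.05, of which the lowest was 0.015. Its brightest probe passed on array A of each group, at 338, 301.5 and 287 units, and on array B of none. Timd4, a receptor for dying cells on resident Kupffer cells, passed on DMSO array B alone (detection p-value 0.0476).

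Of the 5 stellate cell members, Reln and Hgf were detected and Lrat, Pdgfrb and Des were not. Reln, an extracellular glycoprotein of stellate cells, read 613 and 591 units with DMSO, 555 and 663 with KD3010, and 531 and 641 with GW1516. Its log2 values were 8.44 and 8.46 with DMSO, 8.55 and 8.79 with KD3010, and 8.49 and 8.67 with GW1516. All agonist values lay above both DMSO values, by a log2 difference of 0.22 ± 0.17 for KD3010 and 0.13 ± 0.17 (SE) for GW1516 (limma, adjusted p = 0.651 and 0.852). The Reln differences were 0.10 without KD3010 array B and 0.04 without GW1516 array B. Hgf, the growth factor that stellate cells supply to hepatocytes, was at the detection limit. It read 283 and 279 units with DMSO, 266 and 290.4 with KD3010, and 293 and 286 with GW1516, where alone its detection p-values were below 0.05 (0.0313 and 0.0414). The normalized log2 values were 5.90 and 6.0 with DMSO, 5.90 and 6.17 with KD3010, and 6.45 and 6.18 with GW1516, so the GW1516 arrays lay above the others. Since Hgf entered through the GW1516 arrays alone, that order was favoured by the choice. The log2 difference from DMSO was 0.36 ± 0.18 (SE, 95% interval -0.03 to 0.76; limma, adjusted p = 0.552), and 0.11 without background correction.

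Lrat, the enzyme that esterifies retinol, and Pdgfrb, the PDGF receptor of stellate cells, were not detected on any array. Their lowest detection p-values were 0.556 and 0.169. Des, the intermediate filament desmin, passed on KD3010 array B and GW1516 array B alone, at 305 and 285 units, against 252 and 269 units with DMSO.

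Sox9, a transcription factor of bile duct cells that some hepatocytes around the portal tract also make, was read at 1022 and 1123 units with DMSO, 801 and 696 with KD3010, and 865 and 1064 with GW1516. The log2 values were 9.46 and 9.74 with DMSO, 9.34 and 8.90 with KD3010, and 9.56 and 9.65 with GW1516. Both KD3010 arrays lay below the arrays of the other groups. The log2 difference was -0.48 ± 0.20 (SE, 95% interval -0.92 to -0.05) against DMSO and -0.49 ± 0.20 (-0.93 to -0.05) against GW1516, and neither passed in limma's test (adjusted p = 0.380 and 0.315). Without KD3010 array B the difference from DMSO was -0.26, and without KD3010 array A it was -0.70. GW1516 and DMSO differed by 0.01 (-0.43 to 0.44).

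The 5 lymphocyte and leukocyte members were undetected throughout. The T cell receptor subunit Cd3e, the co-receptor Cd8a, the B cell receptor subunit Cd79a, the granule protein Nkg7 of cytotoxic cells and the leukocyte phosphatase Ptprc (CD45) had 0 of 36 array values below 0.05. Cd3e came nearest, with signals of 251 to 287 units and a lowest detection p-value of 0.0501. The signals of Ptprc, which nearly all leukocytes carry, ranged from 179.7 to 253 units over its 2 probes.

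The first comparison asked whether KD3010 shifted these markers. A call needed limma's adjusted p to be under 0.05 and the groups to differ by 1.5-fold or more. Of the 14 tested members 0 were called, where 0.124% of all 8058 features were (0.0993% higher and 0.0248% lower). At an unadjusted p below 0.05, 2 members were lower with KD3010, Lyve1 and Sox9, and 0 were higher. That threshold was met by 12.2% of all features, 6.76% lower and 5.44% higher. Arrays of the 2 groups were apart in 8 members, 4 lower (Pecam1, Lyve1, Clec4g, Sox9) and 4 higher (Fcgr2b, Eng, Ctss, Reln). For Fcgr2b this held for the brightest probe, while the other probe detected on all 6 arrays had the KD3010 arrays wholly lower. Among the 11 members detected on all 6 arrays, which leave out Ctss, 4 were lower and 3 higher. Before normalization Fcgr2b, Eng, Ctss and Reln overlapped between KD3010 and DMSO. Cdh5, Stab1 and Egfl7 went the other way. Their KD3010 arrays lay below both DMSO arrays before normalization and overlapped with them after it. Over all features the arrays were apart in 44% (22.6% lower and 21.4% higher), so the members were not far from that share. The 10 endothelial genes had a median log2 difference of -0.02, beside -0.00 over all features, with 5 above 0 and 5 below. Their median lay between -0.10 and -0.02 when arrays were left out in turn, with -0.10 without DMSO array B and -0.06 without DMSO array A. With median scaling it was -0.14, beside a median of -0.12 for all features.

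GW1516 against DMSO was the second comparison. Again 0 of 14 members were called in limma's test, against 0.0869% of all features, and 1 member, Lyve1, had an unadjusted p below 0.05. Of all features 9.52% reached that mark (4.83% lower and 4.69% higher). Lyve1 was the only member with the GW1516 arrays wholly lower, and Stab1, Clec4g, Eng, Egfl7, Reln and Hgf had them wholly higher, where 19.8% and 20.7% of all features did (40.5% together). Among the 11 members detected on all 6 arrays, which leave out Hgf, 5 had them wholly higher and 1 wholly lower. Before normalization Stab1, Clec4g, Eng and Reln overlapped between GW1516 and DMSO. Pecam1 was apart only before normalization, with the GW1516 arrays lower. The next brightest Egfl7 probe, also detected on every array, overlapped between these groups after normalization. Among the 10 endothelial genes 8 had a value above 0, with a median log2 difference of 0.14 beside 0.00 over all features. That median was 0.05 without GW1516 array B, 0.06 without DMSO array B, and 0.04 with median scaling, where 7 of 10 were above 0 and the median of all features was -0.09. Without background correction, or on the authors' values, it was 0.07. Of the 9 endothelial genes detected on all 6 arrays, which leave out Tek, 7 were above 0, with a median of 0.13. Over the 11 members detected on all 6 arrays, the median was 0.13 with GW1516 and -0.05 with KD3010.

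The third comparison set the agonists side by side, with doses and times unknown. In limma's test 0 of 14 members were called, as were 0% of all 8058 features, and 1 member, Sox9, had an unadjusted p below 0.05, where 13.9% of all features did (7.78% lower and 6.14% higher with KD3010). Members with the KD3010 arrays wholly lower were Stab1, Clec4g, Egfl7, Ptprb, Hgf and Sox9 (6 of 14, against 24.3% of all features), and 0 were wholly higher (21% of all features, 45.3% in both directions). Without Hgf, the 11 members detected on all 6 arrays held 5 of the 6. The next brightest Egfl7 probe, also detected on every array, had the KD3010 arrays wholly higher. Before normalization Stab1, Ptprb and Hgf overlapped between the agonists. The median log2 difference of the 10 endothelial genes was -0.16, with 9 of 10 below 0, beside -0.00 over all features. The hepatocyte markers leaned the same way. Of the 12 tested, 10 were below 0, with a median of -0.09, and 6 had the KD3010 arrays wholly lower. The endothelial median was -0.07 without background correction or on the authors' values, where 8 of 10 were below 0, and -0.09 for the mean of each gene's probes. Leaving out KD3010 array A left 6 of 10 below 0, and leaving out KD3010 array B or GW1516 array B left 7 of 10. Tek entered through GW1516 alone. Of the 9 endothelial genes detected on all 6 arrays, which leave out Tek, 8 were below 0, with a median of -0.18. The 95% intervals of the 14 members reached from -0.93 (Tek) to 0.89 (Ctss) at most. Other intervals were narrower, such as -0.48 to 0.21 for Stab1, so the room left for a change differed by gene. Against DMSO the intervals reached from -1.02 to 1.25 at most with KD3010 and from -0.94 to 1.11 with GW1516.

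**Figure D4:**
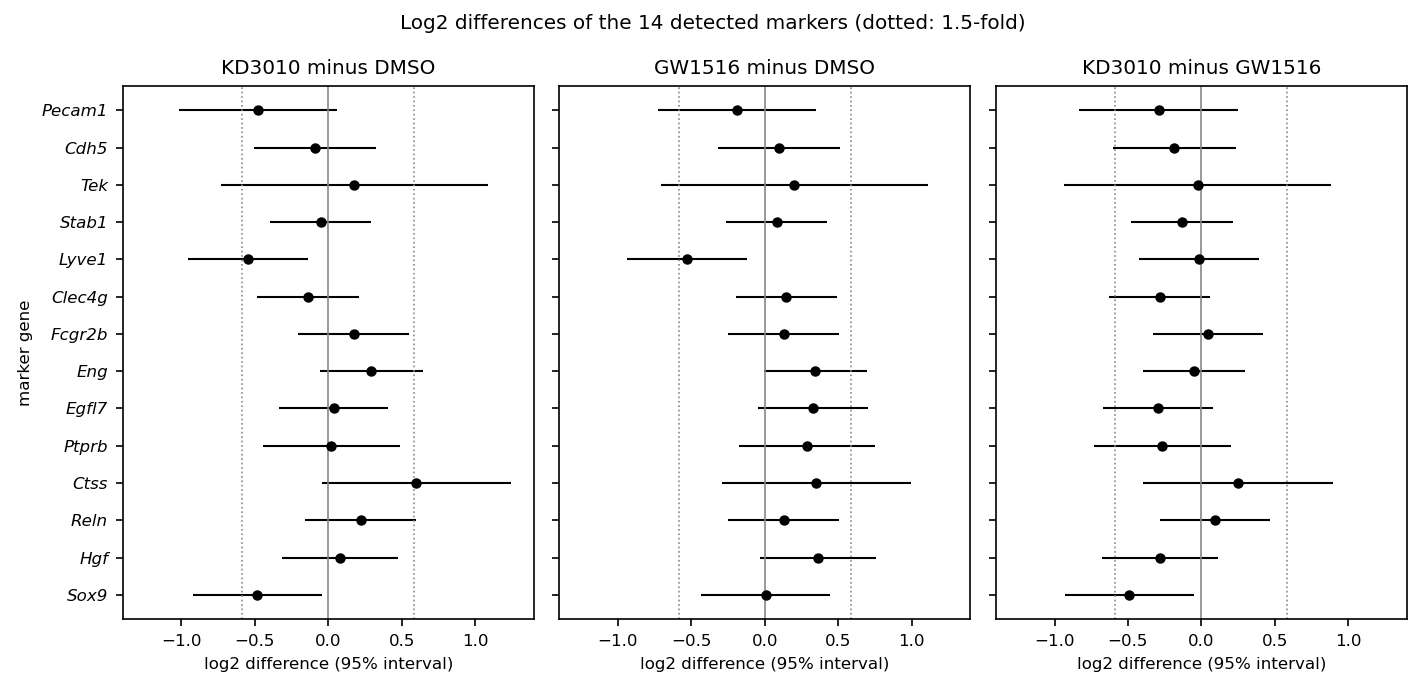
Log2 difference of each detected marker in the 3 comparisons (points) with its 95% confidence interval from limma (bars). The dotted lines mark 1.5-fold. The intervals of Lyve1 against DMSO (-0.55 and -0.53) and of Sox9 with KD3010 (-0.48 and -0.49) lie below 0, and all others include 0.

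Several markers had more than 1 probe, and probes of a gene did not read alike. Egfl7 had 3 probes, of which the brightest (1350 to 1703 units) and the next (422 to 503 units) were detected on all arrays. The next probe differed from DMSO by -0.03 ± 0.16 (SE) with GW1516 on the log2 scale, where the brightest gave 0.33 ± 0.17. For KD3010 minus GW1516 the next probe gave 0.23 ± 0.16 and the brightest -0.29 ± 0.17. For Fcgr2b the brightest probe gave 0.17 ± 0.17 with KD3010 and the other detected probe -0.25 ± 0.17. With GW1516 the same probes gave 0.13 ± 0.17 and -0.11 ± 0.17. The second probe of Pecam1 read 230.1 to 271 units and was detected on 0 arrays.

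**Figure D5:**
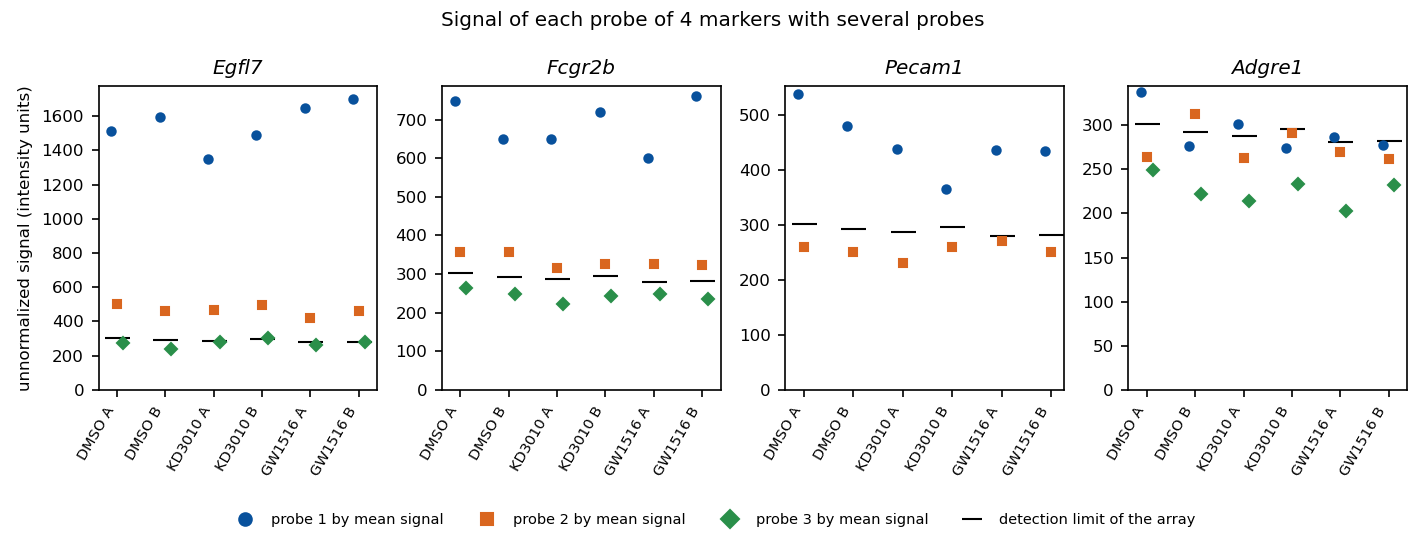
Unnormalized signal of each probe of Egfl7, Fcgr2b, Pecam1 and Adgre1 on the 6 arrays. Black ticks mark each array's detection limit. For Pecam1 the second probe lies at 230.1 to 271 units on all arrays, and Adgre1 stays near the limit.

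The precision of the comparisons varied among the members. The standard error of a log2 difference ran from 0.15, for Stab1 and Clec4g, to 0.41, for Tek, beside a median of 0.18 over all features.

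Further markers of the same cell types were read in the same fit, to set the members beside genes not on their list. Of the genes with a probe, 8 of 16 further endothelial, 6 of 14 macrophage, 4 of 15 stellate or fibroblast, 2 of 7 bile duct and 3 of 14 lymphocyte genes were detected, and 0 were called in any comparison. Beside the 44.9% of all named genes, the shares of the further endothelial genes (50%) and macrophage genes (42.9%) lay near the background, so these lists did not repeat the gap between the endothelial members (76.9%) and the Kupffer members (7.14%). Cd74, the invariant chain of antigen presentation, and Cd14, a lipopolysaccharide co-receptor, were detected on all 6 arrays, unlike the Kupffer members. From the further lymphocyte list, Ccl5 and Cd52 were detected on all 6 arrays and Ltb on 4, unlike the lymphocyte members. Cd74 read 9.19 and 8.30 on the log2 scale with DMSO, 9.30 and 9.14 with KD3010, and 9.49 and 9.42 with GW1516. It differed from DMSO by 0.71 ± 0.26 (SE) with GW1516 (limma, adjusted p = 0.436) and 0.48 ± 0.26 with KD3010 (adjusted p = 0.508). The 2 DMSO arrays lay further apart than either difference. Hmox1, a heme-degrading enzyme, was lower with both agonists, by -0.58 ± 0.20 with KD3010 and -0.53 ± 0.20 with GW1516 (limma, adjusted p = 0.316 and 0.458). Of the 6 tested macrophage genes, 4 were higher and 2 lower with KD3010, with a median log2 difference of 0.11. With GW1516 4 were higher and 2 lower, with a median of 0.12. For KD3010 minus GW1516 the median was -0.11, with 1 above 0 and 5 below. Vim, the intermediate filament vimentin of stellate cells and fibroblasts, read 9.72 and 9.41 on the log2 scale with DMSO, 10.36 and 10.36 with KD3010, and 8.66 and 9.36 with GW1516. The 3 groups were apart, with differences of 0.80 ± 0.23 for KD3010 and -0.55 ± 0.23 (SE) for GW1516 from DMSO (adjusted p = 0.251 and 0.507) and 1.35 ± 0.23 between the agonists (adjusted p = 0.146). Acta2, the contractile actin of activated stellate cells, was detected on 5 of 6 arrays and differed by -0.27 ± 0.27 with KD3010. Among endothelial genes the diaphragm protein gene Plvap differed by 0.55 ± 0.18 with KD3010 (adjusted p = 0.287). Of the 8 tested genes of that list, 3 were higher and 5 lower with KD3010, with a median of -0.12. With GW1516 5 were higher and 3 lower, with a median of 0.08. For KD3010 minus GW1516 the median was -0.10, with 3 above 0 and 5 below. Among bile duct genes the tight junction gene Cldn4 differed by 0.56 ± 0.17 with KD3010 (adjusted p = 0.269).

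Partners of the members in signalling were taken from a list of 29 ligands, receptors and regulators. Of 28 with a probe, 17 were detected and 0 were called in limma's test. Vegfa, the ligand of the undetected Kdr, differed from DMSO by -0.45 ± 0.16 (SE) with KD3010 (adjusted p = 0.321) and -0.03 ± 0.16 with GW1516. Angpt2, a ligand of Tek, differed by 0.28 ± 0.22 and 0.20 ± 0.22, and the other ligand Angpt1 was not detected. Of the Reln pathway, the receptor Vldlr differed by -0.01 ± 0.16 and -0.13 ± 0.16, and the adaptor Dab1 by 0.51 ± 0.21 (adjusted p = 0.381) and 0.32 ± 0.21. Met, the receptor of Hgf, passed on 1 of 6 arrays and so was not detected. Pdgfa, 1 of the PDGF ligands, differed by 0.64 ± 0.22 with KD3010 (limma, adjusted p = 0.304) and 0.07 ± 0.22 with GW1516. Pdgfb, the other PDGF ligand on the list, differed by -0.07 ± 0.17 with KD3010 and 0.40 ± 0.17 with GW1516 (limma, adjusted p = 0.916 and 0.52). The member Pdgfrb was not detected.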

How the data were processed

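The deposited unnormalized table gives each probe's mean bead intensity, per the file headers, and its values are linear. A deposited detection p-value beside each intensity compares the probe with negative controls, per the file headers. The submitters' processing notes name GenomeStudio. The authors' second table and the series matrix (equal, largest difference 0; column medians 257.8 to 257.86) hold normalized intensities on a linear scale, not centred per gene; the sources used here do not name the method. The 12 columns of bead numbers and bead errors and 1 unnamed column were not used.

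Intensities were corrected with normexp on the detection p-values (offset 16), quantile-normalized and log2-transformed (limma 3.58.1, R 4.3.3). Kept were 10530 probes that passed a detection p of 0.05 on every array of some group; the brightest kept probe stood for its gene. The platform annotation gave 23978 probes 1 symbol, 0 several and 1719 none. Current symbols were looked up through its Entrez gene identifier for 23962 probes and its accession for 9, and 7 probes kept the array symbol. lmFit and eBayes over all 6 arrays (3 residual and 6.54 prior degrees of freedom) gave p-values, Benjamini-Hochberg adjusted over 8058 features. Intervals cover 95%. The fit was tested on simulated data.

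All detected members are described. From each further list up to 3 genes, those with the greatest differences, or partners of a member were eligible to be named. Members and lists were chosen with earlier results of these data known. The number of arrays limits precision. The alternatives are given in the closing section.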

Additional observations from a re-analysis of the deposited data

How the results depend on the processing

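Each group had 2 technical arrays, so the absence of calls among members says little about stability. Under no alternative was a member called. The 42 member differences were refitted 699 times, and 36 refits turned a sign, 22 of them with an array left out. Detected members numbered 11 to 17 under the other detection rules, against 14. The features called over the whole table varied more. For KD3010 minus DMSO they numbered 10, and 34 without background correction, 24 with an offset of 50, 32 on the authors' table or the series matrix, 16 with detection on all 6 arrays, 23 with a detection p below 0.01, 6 with no filter, 49 with trend and robust eBayes, and 0 to 2 with an array left out. For GW1516 minus DMSO they numbered 7, and 2 with median scaling or no filter, 12 on the authors' table or the series matrix, 17 with trend and robust eBayes, and 0 to 3 with an array left out. For KD3010 minus GW1516 they numbered 0, and 38, 15, 39, 5, 7 and 57 under no background correction, an offset of 50, the authors' values, detection on all 6 arrays, a detection p below 0.01, and trend and robust eBayes. Leaving out an array gave 0 there. The labels do not give the column letters, although in the order of group and letter the authors' table equalled the series matrix (largest difference 0). The planned replicate block was not fitted on the unnormalized table. It was fitted on the series matrix values, an alternative chosen after seeing the data, and gave 38, 20 and 45 called features and 0 called members; arrays of like number did not deviate together (correlations -0.0066, -0.0012 and 0.0092). With median scaling the signs that turned were those of Egfl7 (-0.10) and Ptprb (-0.082) for KD3010 minus DMSO, Stab1 (-0.0081) and Sox9 (-0.11) for GW1516 minus DMSO, and Fcgr2b (-0.010) for KD3010 minus GW1516. The mean of a gene's probes gave Fcgr2b -0.039 against DMSO and -0.048 against GW1516 with KD3010. On the authors' values, with or without the block, Sox9 was -0.0048 (GW1516 minus DMSO) and Tek 0.0015 (KD3010 minus GW1516), which was 0.0010 without background correction. With an array left out, KD3010 minus DMSO ran from -0.30 to 0.12 for Cdh5, -0.38 to 0.74 for Tek, -0.053 to 0.12 for Egfl7, -0.26 to 0.30 for Ptprb and -0.054 to 0.22 for Hgf. GW1516 minus DMSO ran from -0.33 to 0.73 for Tek, -0.066 to 0.76 for Ctss and -0.14 to 0.15 for Sox9. KD3010 minus GW1516 ran from -0.67 to 0.088 for Pecam1, -0.40 to 0.027 for Cdh5, -0.58 to 0.54 for Tek, and across 0 for Lyve1, Fcgr2b, Eng, Ctss and Reln, from -0.20 to 0.18, -0.075 to 0.17, -0.11 to 0.010, -0.056 to 0.56 and -0.029 to 0.21. The cause of these turns was not tested. Lyve1 against DMSO kept its sign in all 17 alternatives for each agonist, with adjusted p from 0.238 to 0.629 and 0.271 to 0.776, and Sox9 with KD3010 did so too, from 0.185 to 0.726 against DMSO and 0.151 to 0.679 against GW1516.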
